A study of Gossypium hirsutum with 6 samples.

Results

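The genes described here turn the oil stored in a cotton seed into sugar: the lipase that frees fatty acids from storage oil, the importer and activating enzyme that bring them into the peroxisome, the enzymes of beta-oxidation, the glyoxylate cycle, and PCK1, which opens the way back to sugar. They were chosen as every cotton gene whose matched Arabidopsis locus in the deposited table is on a list of 24 such loci. Of 70478 genes in the table, 64063 carry an Arabidopsis match and 94 belong to the list. These copies fall on A chromosomes (41), D chromosomes (50) and scaffolds (3), since cotton is a tetraploid that carries an A and a D subgenome. They match 19 of the 24 loci. No row of the table is matched to SDP1L (AT3G57140), LACS6 (AT3G05970), KAT5 (AT5G48880), KAT1 (AT1G04710) or PMDH2 (AT5G09660), so these could not be analysed here. All gene names are those of the matched Arabidopsis gene, and the roles given are those known in Arabidopsis.

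RNA-seq was done on seedlings of wild type CCRI24, an upland cotton (*Gossypium hirsutum*). Seeds were sown on MS medium for 4 d at 25 °C under 16 h light and 8 h dark, and the seedlings were then kept for 24 h on medium with either DMSO (the solvent alone) or AZD at 5 μM. AZD blocks the TOR kinase at its ATP site. The labels give an age of 5 d and wild type for all 6 libraries, and each treatment has 3, which the study calls biological repeats. Values are in FPKM, in which fragment numbers are divided by transcript length and by the size of the library, so that levels of different genes can be set side by side. The direction of every difference rests on the sample labels. The fold changes that the study tabulates carry the opposite sign for the same genes, so each library goes here by the treatment its label states. Whether the labels are exchanged or the study's sign is turned was not settled, and with exchanged labels every direction given here would turn. The study also checked some genes by QRT-PCR and reports the directions of its own RNA-seq comparison, which are opposite to those that the labels give. The QRT-PCR measurements are not part of the deposited values and were not used here.

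An oil seedling lives on stored triacylglycerol until its cotyledons photosynthesise. Fatty acids freed from oil bodies enter the peroxisome (then often called the glyoxysome), where each turn of beta-oxidation removes acetyl-CoA by oxidation, hydration, a second oxidation and thiolysis. The glyoxylate cycle joins acetyl-CoA units into 4-carbon acids without losing CO2, and phosphoenolpyruvate carboxykinase leads these acids to sugar. As the cotyledons turn green, oil breakdown is known to give way to photosynthesis and the peroxisomes change to photorespiration, which shares malate dehydrogenase and catalase with the older pathway.

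Of the 94 copies, 74 averaged 0.5 FPKM or more across the 6 libraries and were tested. Of the other 20, 8 were listed at 0 in every library and 12 were above 0 in some library. The copies next to this limit were Gh_D12G2814 of AIM1 (a mean of 0.509 FPKM, tested) and Gh_D05G2699 of ACX3 (0.491 FPKM, not tested). CSY3 (AT2G42790) had a single row at 0, so that 18 loci had a tested copy. The size of a difference is given as the log2 change, the mean of log2(FPKM + 0.5) in AZD minus that in DMSO, which understates the change of low genes. Differences were tested with limma across all 43158 genes of the table that reach this average, and "higher" or "lower" is said of a Benjamini-Hochberg adjusted p under 0.05.

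The first principal component of all tested genes (37.9% of the variance) separated AZD from DMSO, while DMSO replicate 1 stood apart on the second (20.8%). Results are therefore also given without DMSO replicate 1. This library was singled out from these same values, so a call that appears only without it is weaker than a call over 6 libraries. For some copies no other fit with a library left out is given. Among green tissue genes, the antenna proteins moved with the groups and RCA, which activates Rubisco, did not pass. Of the 5 loci on this list only 3 had rows, and RBCS1A and GAPA could not be looked at. LHCB1.3 copies summed to 2028, 998 and 1010.1 FPKM in DMSO and 7557, 6638 and 7450.2 FPKM in AZD (replicates 1, 2 and 3), and LHCA1 copies to 971, 627 and 563 and to 2074, 2014 and 1898 FPKM, with 3 of 4 tested copies higher for each. RCA copies summed to 3216, 1357 and 973 FPKM in DMSO and 2860.2, 2460 and 2251 FPKM in AZD, so that DMSO replicate 1 lay above every AZD library, and none of its 6 tested copies passed. No copy of the whole list was lower (limma, with 2 RCA copies below 0 at an unadjusted p under 0.05). Root genes summed to 2.40 to 5.83 FPKM over the 6 libraries, with 11 of 33 rows at 0 in all of them, and seed reserve genes to 1.82 to 6.01 FPKM. None of the 3 tested root copies and 2 tested seed reserve copies passed (limma, with 0 and 1 at an unadjusted p under 0.05). Both seed reserve copies, of OLEO1 and CRA1, lay lower in all AZD libraries than in any DMSO library, as did 15.5% of all genes. They were near the floor, with 0.614 to 2.34 FPKM in DMSO (limma, adjusted p = 0.0705 and 0.218), and the sums of this list overlapped between the groups. In RNA from seedlings, which hold many cell types, fewer cells of a type and less RNA per cell cannot be told apart. The part of green tissue in the differences below was not tested. The number of fragments behind an FPKM value is unknown. The read totals that the study lists for each library were not used here.

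Of the 74 tested copies, 1 was higher (1.35%) and 9 were lower (12.2%) in AZD, against 1.89% higher and 2.80% lower among all tested genes. The lower copies were both copies of SDP1, 2 of ACX1, 1 of ACX4, 3 of ICL and 1 of CSY2. The higher copy was 1 of LACS7. The median log2 change of the 74 copies was −0.19, beside −0.01 for all genes, and 46 copies (62.2%) lay below 0, beside 50.7% of all genes. The groups did not overlap in 15 copies with higher AZD values (20.3%, against 14.5% of all genes) and in 28 with lower ones (37.8%, against 15.5%). Without DMSO replicate 1, 6 copies were higher (8.11%, against 4.20% of all genes) and 22 lower (29.7%, against 3.68%), and all 10 copies called over the 6 libraries were among these 28. Without AZD replicate 1 or 2 no copy was called (limma, with 29 and 25 copies at an unadjusted p under 0.05), without AZD replicate 3 only 1 was lower, without DMSO replicate 3 it was 2 higher and 2 lower, and without DMSO replicate 2 it was 1 higher and 6 lower.

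**Figure D1:**
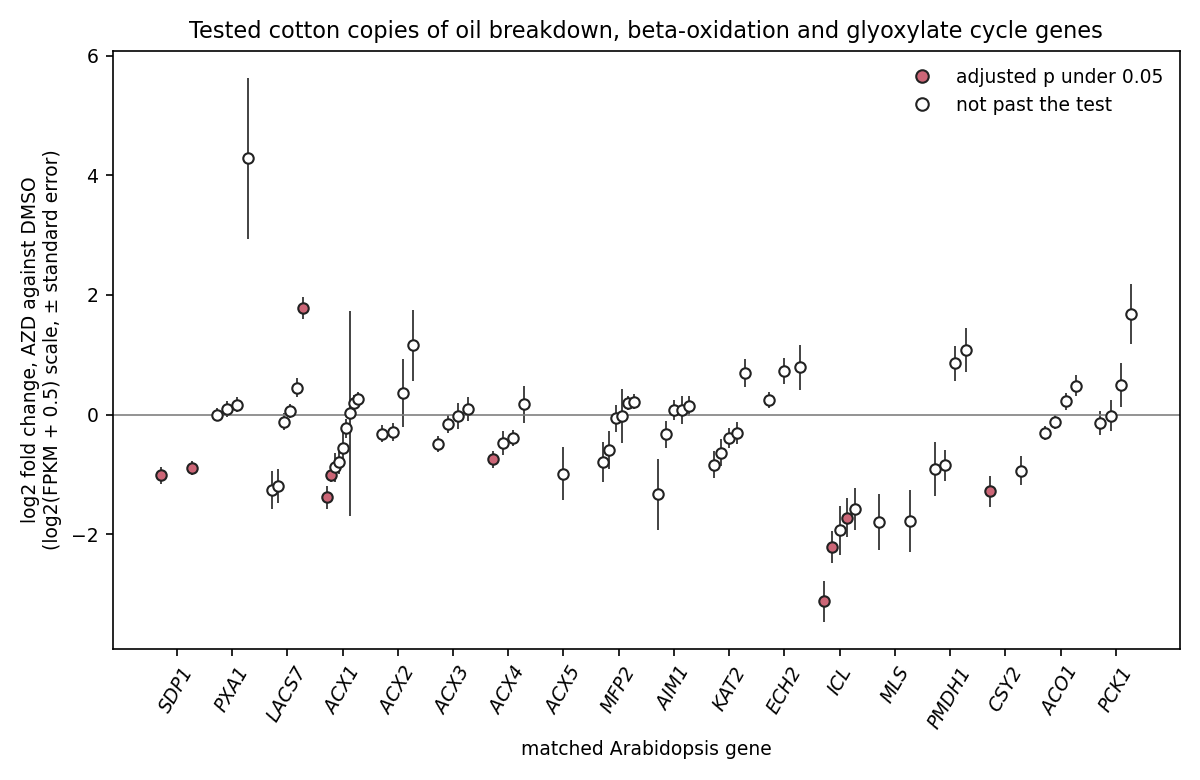
Each point is 1 of the 74 tested cotton copies, grouped by matched Arabidopsis gene, with its log2 change (AZD against DMSO, on the log2(FPKM + 0.5) scale, marked on the axis as log2 fold change) and standard error. Filled points passed the test: 9 below 0, of SDP1, ACX1, ACX4, ICL and CSY2, and 1 above 0, of LACS7, while copies of PMDH1 and LACS7 lie on both sides of 0.

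When the FPKM of all copies of a locus are summed, to give 1 value for each enzyme, SDP1, ACX1, ICL and CSY2 were lower and PXA1 was higher. That is 4 of 18 loci lower (22.2%) and 1 higher (5.56%), against 4.66% and 3.64% of 13335 summed loci. The groups did not overlap in 9 loci with lower AZD sums (50%, against 17.6% of all) and in 3 with higher ones (16.7%, against 16.0%). Without DMSO replicate 1, MLS, KAT2 and MFP2 were lower too, which made 7 lower loci (38.9%, against 6.06% of all), and PMDH1 was the only higher one (5.56%, against 6.52%). ICL had the highest sum, with a mean of 1195 FPKM over the 6 libraries, followed by MLS with 671, PCK1 with 528, PMDH1 with 373, KAT2 with 244 and MFP2 with 203 FPKM. This order pools groups that differ. In DMSO the means of ICL, MLS, PCK1 and PMDH1 were 1837, 1070, 535 and 303 FPKM, and in AZD they were 553, 272, 521 and 443 FPKM, so that MLS came next to ICL in DMSO and below PCK1 and PMDH1 in AZD. Over the 6 libraries the lowest were ECH2 at 27.3 and SDP1 at 14.6 FPKM, and the other loci lay between 36.0 and 97.5 FPKM. The spread over libraries was wide at the top: the ICL and MLS sums in DMSO ran from 1237 to 2603 and from 429 to 1636 FPKM.

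**Figure D2:**
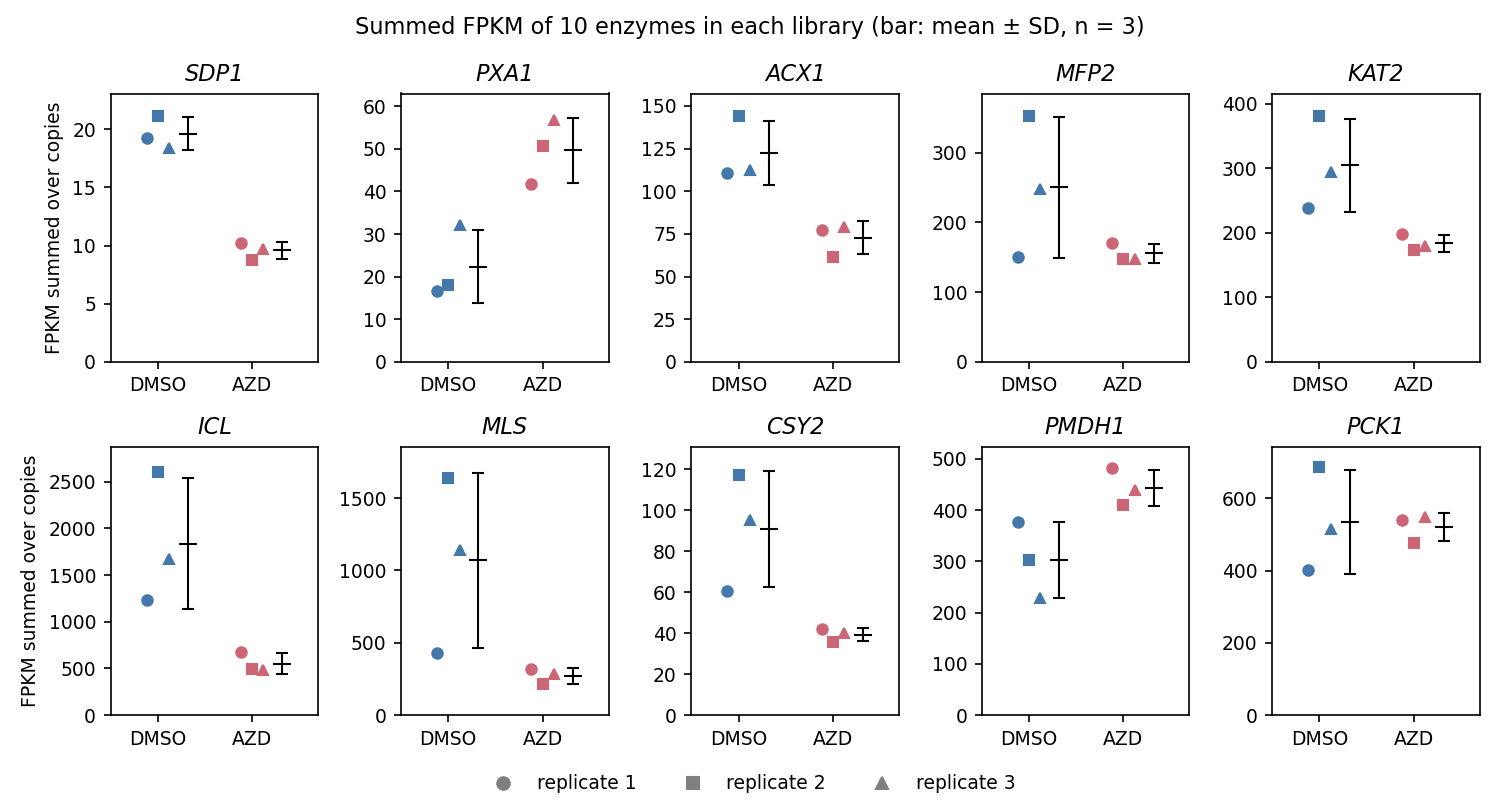
FPKM summed over all copies of 10 enzymes in each library, with the mean ± SD (n = 3) of each group beside the points and an axis from 0 in each panel. SDP1, ACX1, KAT2, ICL, MLS and CSY2 lie lower in all AZD libraries than in all DMSO libraries, PXA1 and PMDH1 lie higher, and DMSO replicate 1 (circles) lies within the AZD points for MFP2 and near them for MLS.

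SDP1 (AT5G04040) is the patatin-type lipase on the oil body surface that starts the breakdown of storage oil. Both of its copies were lower in AZD. Gh_A13G0011 measured 11.7, 12.2 and 10.2 FPKM in DMSO, in the order of the replicate numbers as everywhere below, and 5.92, 4.68 and 5.52 FPKM in AZD. The D13 copy Gh_D13G0027 had 7.57, 8.95 and 8.22 FPKM in DMSO and 4.34, 4.12 and 4.19 FPKM in AZD. The DMSO libraries lay close together in both copies, replicate 1 among them, and no AZD library reached the lowest DMSO value. The log2 changes were −1.01 (standard error 0.138, adjusted p = 0.0192) and −0.89 (standard error 0.115, adjusted p = 0.0165). Summed, SDP1 fell from 19.6 ± 1.41 to 9.59 ± 0.737 FPKM (SD, n = 3), with −0.99 for the log2 change and an adjusted p of 0.00759, and it was the 1 enzyme that passed with any single library left out (adjusted p = 0.00904 to 0.0466). As single copies, Gh_A13G0011 passed only without DMSO replicate 1 (adjusted p = 0.0276), with 0.0536 to 0.0828 in the other 5 cases, and Gh_D13G0027 only without DMSO replicate 1 (0.0155) or 2 (0.0456), with 0.0646 to 0.0936 otherwise.

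PXA1 (AT4G39850) is the ABC transporter that brings fatty acids into the peroxisome. Its sum was higher in AZD (16.7, 18.1 and 32.2 against 41.7, 50.7 and 56.7 FPKM, log2 change 1.19, adjusted p = 0.0427), but a single copy carried this. Gh_A05G3635 was listed at 0 in DMSO replicates 1 and 2, at 16.2 FPKM in DMSO replicate 3 and at 23.1, 31.7 and 40.0 FPKM in AZD. It had the largest positive log2 change of all copies (4.28, standard error 1.34), and with an adjusted p of 0.125 it did not pass, except without DMSO replicate 3 (adjusted p = 0.00562). Without this copy the PXA1 sum was 16.7, 18.1 and 16.0 FPKM in DMSO and 18.6, 18.9 and 16.7 FPKM in AZD, where the groups overlap. The other 3 tested copies, Gh_A12G0802, Gh_D12G0817 and Gh_D11G2186, had between 4.75 and 6.50 FPKM in every library, with log2 changes of −0.00 to 0.17. The call on the sum was also lost when any AZD library (adjusted p = 0.123, 0.134 and 0.130 without replicates 1, 2 and 3) or DMSO replicate 1 (0.0612) or 2 (0.0952) was left out, without the limit of 0.5 FPKM (0.0511) and without limma's trend (0.0553). An exact 0 in 2 libraries beside 16.2 FPKM or more in the others can be a failed estimate of the transcript, which was not tested.

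LACS7 (AT5G27600), a peroxisomal long-chain acyl-CoA synthetase, activates the imported fatty acid. Its 6 tested copies had log2 changes on both sides of 0. Gh_D09G0533 was the only copy of all 74 that was higher in AZD, with 1.12, 0.773 and 1.39 FPKM in DMSO and 5.48, 4.97 and 4.36 FPKM in AZD (log2 change 1.78, standard error 0.185, adjusted p = 0.00942). Its level was low beside that of the A09 copy Gh_A09G0536, which had 25.4, 19.8 and 18.3 FPKM in DMSO and 32, 28 and 26.9 FPKM in AZD (log2 change 0.45, adjusted p = 0.167). The most abundant copy, Gh_D11G3365, stood at 25.8, 58.6 and 35.6 FPKM in DMSO and at 16.7, 15.9 and 16.3 FPKM in AZD (log2 change −1.19, adjusted p = 0.0709), and Gh_A11G2641 at 14.5, 35.9 and 23.6 and at 9.20, 9.13 and 9.73 FPKM (log2 change −1.26, adjusted p = 0.0738). Both chromosome 11 copies were thus without overlap but not past the test, and they passed without DMSO replicate 1 (adjusted p = 0.0270 for Gh_D11G3365 and 0.0171 for Gh_A11G2641). With any other library left out, Gh_D11G3365 did not pass (adjusted p = 0.07455 to 0.2149). The pair on chromosome 9 over the pair on chromosome 11 gave a ratio of 0.659, 0.218 and 0.333 in DMSO and 1.45, 1.32 and 1.20 in AZD. These 2 pairs, like the copies and enzymes in the other ratios below, were set against each other after their values were seen, so that the ratios are given as descriptions only. The copies on chromosome 1, Gh_A01G0167 and Gh_D01G0215, had 9.37 to 15.1 FPKM in every library. Summed, LACS7 had 111 ± 27.1 FPKM (SD, n = 3) in DMSO and 83.5 ± 3.79 FPKM in AZD (log2 change −0.39, adjusted p = 0.229). The call on Gh_D09G0533 was lost without AZD replicate 1 (adjusted p = 0.0643), 2 (0.0619) or 3 (0.0516), and it stayed under 0.05 without any DMSO library (0.0160 to 0.0347).

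The acyl-CoA oxidases carry out the first oxidation, each on its own range of chain lengths. Of their 22 tested copies, 3 were lower (13.6%, against 2.80% of all genes) and none was higher (against 1.89%, limma, also 0 higher at an unadjusted p under 0.05), and 15 lay below 0, with a median log2 change of −0.31. Without DMSO replicate 1, 5 of the 22 were lower (against 3.68% of all genes in that fit) and 2 were higher (against 4.20%). ACX1 (AT4G16760) prefers medium to long chains and also shortens the precursor of jasmonic acid. Its copy Gh_A11G2972 had 24.1, 24.0 and 23.3 FPKM in DMSO and 11.6, 10.7 and 12.4 FPKM in AZD, with little spread in either group (log2 change −1.01, standard error 0.115, adjusted p = 0.0121). The D11 copy Gh_D11G0264 had 17.0, 24.2 and 19.5 FPKM in DMSO and 6.78, 6.45 and 9.18 FPKM in AZD (log2 change −1.38, standard error 0.193, adjusted p = 0.0209). The chromosome 12 pair, which holds the most abundant copy Gh_D12G2143, had no overlap but did not pass: Gh_D12G2143 had 21.8, 42.7 and 32.9 FPKM in DMSO and 17.5, 17.1 and 15.7 FPKM in AZD (log2 change −0.88, adjusted p = 0.0962). For Gh_A12G1964 the log2 change was −0.80 (adjusted p = 0.0744). Both were lower without DMSO replicate 1 (adjusted p = 0.0201 and 0.0273), but Gh_D12G2143 did not pass with any other library left out (0.1564 to 0.2475). These 4 copies are also among the jasmonic acid genes that the study listed from these libraries, with the opposite sign as noted above, so that their direction here rests on the labels and is not independent evidence.

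The other 5 tested ACX1 copies had lower means, and none passed. Gh_A09G1758 and Gh_D09G1867 on chromosome 9 had 2.47 to 6.10 FPKM, with AZD values above the DMSO values in both and log2 changes of 0.20 and 0.26. Gh_A09G1116 was listed at 0 in DMSO replicate 3 and AZD replicate 2 and at 10 to 13.5 FPKM in the other 4 libraries. Over all copies, ACX1 summed to 111, 144 and 112 FPKM in DMSO and 77.3, 61.5 and 79.1 FPKM in AZD (log2 change −0.75, adjusted p = 0.0414), a call that held only without DMSO replicate 1 (0.0372) when a library was left out. In the other 5 cases its adjusted p was 0.0739 to 0.135, and without limma's trend it was 0.0513. For single copies, Gh_A11G2972 was lost without AZD replicate 1 (adjusted p = 0.0742), 2 (0.0641) or 3 (0.0539), and Gh_D11G0264 without these (0.108, 0.0955 and 0.0551) or DMSO replicate 3 (0.0743).

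ACX2 (AT5G65110) acts on long chains and ACX3 (AT1G06290) on medium ones. Their most abundant copies were Gh_A11G1832 of ACX2, with 31.1, 35.4 and 27.7 FPKM in DMSO and 27.7, 22.5 and 24.9 FPKM in AZD (log2 change −0.32, adjusted p = 0.261), and Gh_A12G1288 of ACX3, with 29.6, 29.2 and 24.2 and with 20.8, 18.5 and 18.9 FPKM (log2 change −0.50, adjusted p = 0.0910). A different pattern was seen in the smaller ACX2 pair on chromosome 10: Gh_A10G0763 had 6.46 FPKM in DMSO replicate 1, 0.871 and 1.16 in DMSO replicates 2 and 3, and 5.15, 5.48 and 4.71 FPKM in AZD. DMSO replicate 1 thus lay above all AZD libraries while the other DMSO libraries lay far below them, and Gh_D10G2577 did the same (6.38, 0.959 and 1.19 against 2.55, 3.0 and 2.88 FPKM). Over 6 libraries neither passed (adjusted p = 0.299 and 0.753), and without DMSO replicate 1 both were higher, with log2 changes of 1.89 (adjusted p = 0.00787) and 1.07 (adjusted p = 0.0222). ACX2 and ACX3 summed to 50.6 ± 8.37 and 56.3 ± 8.65 FPKM (SD, n = 3) in DMSO and to 43.9 ± 3.25 and 46.8 ± 3.96 FPKM in AZD, and neither sum passed (adjusted p = 0.458 and 0.314).

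ACX4 (AT3G51840) finishes the short chains. Its copy Gh_A09G2434 was lower in AZD (11.3, 15.1 and 13.3 against 7.45, 7.33 and 8.20 FPKM, log2 change −0.75, adjusted p = 0.0416), and it passed only without DMSO replicate 1 (0.0231) when a library was left out, with 0.0855 to 0.167 in the other 5 cases. The call was also lost without the limit of 0.5 FPKM (adjusted p = 0.0516) and without limma's trend (0.0549). The D09 copy Gh_D09G1569, the most abundant copy, had 25.2, 41.1 and 31.5 FPKM in DMSO and 25.6, 20.3 and 22.9 FPKM in AZD (log2 change −0.48, adjusted p = 0.226), and DMSO replicate 1 lay within the AZD values. On chromosome 13, Gh_A13G2171 had 16.5 to 18.6 FPKM in DMSO and 11.5 to 14.2 FPKM in AZD (adjusted p = 0.143). Gh_D13G0976 went the other way, with 6.72, 2.66 and 3.24 FPKM in DMSO and 4.91, 4.50 and 4.01 FPKM in AZD (log2 change 0.17, adjusted p = 0.787). Summed, ACX4 had 67.4 ± 7.39 FPKM (SD, n = 3) in DMSO and 48.1 ± 4.06 FPKM in AZD, and did not pass (log2 change −0.48, adjusted p = 0.0666). ACX5 (AT2G35690), a close relative of ACX1, had 1 tested copy on a scaffold, Gh_Sca064630G01, at 71.5, 45.8 and 53.5 FPKM in DMSO and 50.6, 14.6 and 29.3 FPKM in AZD, where both groups spread widely and overlapped (log2 change −0.99, adjusted p = 0.241).

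MFP2 (AT3G06860) and AIM1 (AT4G29010) are multifunctional proteins that add water to the double bond and oxidise the product. None of their 11 tested copies passed (limma, also 0 at an unadjusted p under 0.05), with a median log2 change of −0.03. The main MFP2 copy, Gh_D09G0606, had 82.4, 196 and 139.6 FPKM in DMSO and 96.6, 85.5 and 79.0 FPKM in AZD (log2 change −0.59, standard error 0.319, adjusted p = 0.321). The A09 copy Gh_A09G0607 had 54.9, 140.0 and 92.9 and 58.1, 46.0 and 50.2 FPKM (log2 change −0.80, adjusted p = 0.218). In both, DMSO replicate 1 lay among the AZD libraries and the other DMSO libraries lay above them, and without DMSO replicate 1 the log2 changes were −0.93 (adjusted p = 0.0545) and −1.15 (adjusted p = 0.0440). With any other library left out, Gh_D09G0606 had an adjusted p of 0.456 to 0.552. The chromosome 10 copies of MFP2, at 4.75 to 9.25 FPKM, had log2 changes of 0.19 and 0.22 (adjusted p = 0.349 and 0.346). AIM1 was carried by Gh_A08G2149 (16.2, 22.0 and 20.4 FPKM in DMSO and 23.7, 18.7 and 22.1 FPKM in AZD, log2 change 0.14, adjusted p = 0.655) and Gh_D08G2516 (16.3, 27.4 and 25.6 and 19.6, 16.0 and 18.1 FPKM, log2 change −0.33, adjusted p = 0.425). The AIM1 sum was 54.3 ± 8.44 FPKM (SD, n = 3) in DMSO and 50.4 ± 3.83 FPKM in AZD, and the 95% interval of its log2 difference ran from −0.44 to 0.25. Gh_D12G2814 was listed at 0 in all AZD libraries and in DMSO replicate 2, and at 1.83 and 1.22 FPKM in DMSO replicates 1 and 3.

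KAT2 (AT2G33150), the thiolase that releases acetyl-CoA, was the most abundant of the beta-oxidation enzymes. Its main copy Gh_D10G1434 had 131, 215 and 146 FPKM in DMSO and 100.1, 81.7 and 87.9 FPKM in AZD (log2 change −0.84, standard error 0.222, adjusted p = 0.0875), and Gh_A10G1076 had 77.7, 137 and 107 and 73.2, 64.3 and 63.5 FPKM (log2 change −0.64, adjusted p = 0.160). The groups did not overlap in either copy, but no KAT2 copy passed (limma, 5 tested, 4 of them below 0, and 3 at an unadjusted p under 0.05). The sum stood at 238, 381 and 294 FPKM in DMSO and at 198, 173 and 180.1 FPKM in AZD (log2 change −0.70, adjusted p = 0.0744), and passed only without DMSO replicate 1 (adjusted p = 0.0246), where Gh_A10G1076 passed as well (0.0422). The low copy Gh_A07G1461, with 0.780 to 1.43 FPKM in DMSO, lay at 1.66 to 2.74 FPKM in AZD (log2 change 0.69, adjusted p = 0.144). ECH2 (AT1G76150) is an enoyl-CoA hydratase that serves unsaturated fatty acids, and its copy Gh_D05G2422 had 24.7, 23.7 and 19.8 FPKM in DMSO and 26.4, 27.2 and 27.1 FPKM in AZD (log2 change 0.25, adjusted p = 0.318). All 3 tested ECH2 copies had positive log2 changes, from 0.25 to 0.79, and none passed (limma, 1 of them at an unadjusted p under 0.05).

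ICL (AT3G21720) and MLS (AT5G03860) are the enzymes particular to the glyoxylate cycle: isocitrate lyase splits isocitrate into succinate and glyoxylate, and malate synthase joins glyoxylate with acetyl-CoA. All 7 of their copies had lower values in all AZD libraries than in any DMSO library, as did 15.5% of all genes. Of these copies, 3 of ICL passed (42.9% of the 7, against 2.80% of all genes). They belong to only 2 enzymes, and copies of 1 enzyme are not separate results. Gh_D02G1343 had the most negative log2 change of all 74 copies, from 9.45, 15.8 and 14.0 FPKM in DMSO to 0.845, 0.583 and 1.97 FPKM in AZD (log2 change −3.12, standard error 0.343, adjusted p = 0.0112). In mean FPKM this is an 11.6-fold difference. Gh_A03G0958 had 172, 126 and 93.0 FPKM in DMSO and 27.5, 21.3 and 32.9 FPKM in AZD (log2 change −2.22, standard error 0.270, adjusted p = 0.0146). These 2 copies took a small part of the ICL sum.

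Most ICL signal came from chromosome 13. Gh_D13G0912, with 66.6% of the summed ICL FPKM, had 757, 1749 and 1108 FPKM in DMSO and 486, 355 and 322 FPKM in AZD (log2 change −1.57, adjusted p = 0.0603). The adjacent Gh_D13G0911 had 262, 593 and 391 and 145, 102 and 112 FPKM (log2 change −1.73, standard error 0.325, adjusted p = 0.0406), and Gh_A13G0776 had 37.5, 119.5 and 64.8 and 21.2, 15.5 and 14.9 FPKM (log2 change −1.93, adjusted p = 0.0529). Without DMSO replicate 1, Gh_D13G0912 and Gh_A13G0776 were lower too (adjusted p = 0.0290 and 0.0194). With any other library left out, Gh_D13G0912 did not pass (adjusted p = 0.102 to 0.186). The D13 neighbours may be parts of 1 gene or copies that share reads, and their separate values are uncertain. Summed, ICL fell from 1237, 2603 and 1671 FPKM in DMSO to 680.4, 494 and 484 FPKM in AZD (log2 change −1.68, standard error 0.312, adjusted p = 0.0290). The sum kept its call without DMSO replicate 1 (adjusted p = 0.0125) or 2 (0.0417), and lost it without DMSO replicate 3 (0.0807) or AZD replicate 1 (0.0960), 2 (0.112) or 3 (0.105). Among the called copies, Gh_D13G0911 passed only without DMSO replicate 1 (0.0180, with 0.0674 to 0.145 otherwise, and 0.0545 without the limit of 0.5 FPKM), Gh_A03G0958 without any DMSO library (0.0158 to 0.0456, and 0.0585 to 0.0846 otherwise), and Gh_D02G1343 without DMSO replicate 1 (0.0141) or 2 (0.0396) or AZD replicate 3 (0.0235), with 0.0565 to 0.0709 otherwise.

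MLS had 2 copies at nearly the same level. Gh_A07G0470 stood at 230.0, 829.8 and 582 FPKM in DMSO and at 159.6, 113 and 146 FPKM in AZD (log2 change −1.79, standard error 0.472, adjusted p = 0.0854), and Gh_D07G0535 at 199, 807 and 562 and at 161, 98.9 and 139 FPKM (log2 change −1.78, adjusted p = 0.108). DMSO replicate 1 lay nearer to the AZD libraries in both copies, at 0.326 and 0.291 times the mean of DMSO replicates 2 and 3. Without it, both were lower (adjusted p = 0.0125 and 0.0156), with log2 changes of −2.33 and −2.37. With any other library left out, Gh_A07G0470 did not pass (adjusted p = 0.1564 to 0.2355). The MLS sum, too, was lower only without DMSO replicate 1 (adjusted p = 0.00626), with 0.123 to 0.197 otherwise. The ICL sum was 2.88, 1.59 and 1.46 times the MLS sum in DMSO and 2.12, 2.33 and 1.7 times in AZD.

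DMSO replicate 1 did not take the same place in all ICL copies. In Gh_A03G0958 it had the highest of all 6 values, while in Gh_D13G0912, Gh_D13G0911 and Gh_A13G0776 it was the lowest DMSO library. The ICL pair on A03 and D02 therefore made up 0.171 times the chromosome 13 copies in DMSO replicate 1, 0.0577 and 0.0684 times in DMSO replicates 2 and 3, and 0.0434, 0.0463 and 0.0776 times in AZD.

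**Figure D3:**
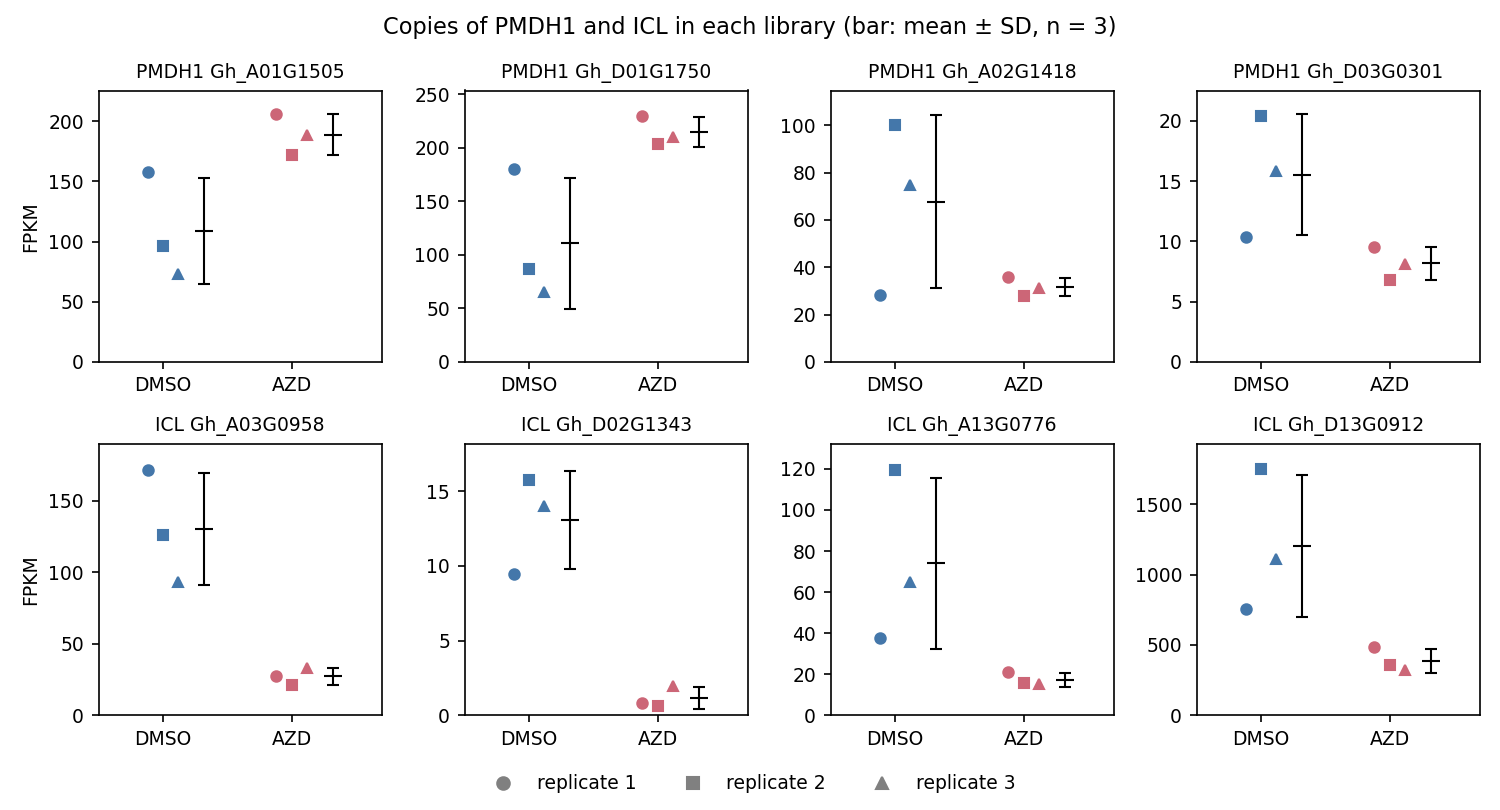
FPKM of 4 PMDH1 copies (top) and 4 ICL copies (bottom) in each library, with the mean ± SD (n = 3) of each group beside the points and an axis from 0 in each panel. In the PMDH1 copies on A01 and D01 DMSO replicate 1 (circle) is the highest DMSO library and in those on A02 and D03 the lowest, and the ICL copies lie lower in every AZD library, with DMSO replicate 1 highest in Gh_A03G0958 and lowest in the other 3.

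PMDH1 (AT2G22780), the peroxisomal malate dehydrogenase that handles the NADH of beta-oxidation and serves photorespiration in green tissue, had 4 copies that parted in pairs. On chromosome 1, Gh_D01G1750 had 180.3, 86.5 and 65.7 FPKM in DMSO and 230.2, 203 and 209.8 FPKM in AZD (log2 change 1.08, standard error 0.367, adjusted p = 0.147), and Gh_A01G1505 had 158, 96.0 and 73.0 and 206, 172 and 189 FPKM (log2 change 0.86, adjusted p = 0.148). Gh_A02G1418, in contrast, had 28.1, 100.3 and 74.9 FPKM in DMSO and 35.7, 27.9 and 31.5 FPKM in AZD (log2 change −0.91, adjusted p = 0.289), and Gh_D03G0301 had 10.4, 20.4 and 15.9 and 9.58, 6.82 and 8.12 FPKM (log2 change −0.85, adjusted p = 0.119). None of the 4 passed over 6 libraries (limma, 3 of them at an unadjusted p under 0.05). DMSO replicate 1 lay nearer to AZD than to the other DMSO libraries in all of them, and without it the chromosome 1 copies were higher (log2 changes 1.5 and 1.16, adjusted p = 0.0142 and 0.0256) and the other pair lower (−1.45 and −1.10, adjusted p = 0.0184 and 0.0358). With any other library left out, Gh_D01G1750 did not pass (adjusted p = 0.278 to 0.348). The A01 and D01 pair over the A02 and D03 pair was 8.80, 1.51 and 1.53 in DMSO and 9.62, 10.8 and 10.1 in AZD, so that DMSO replicate 1 lay apart from the other DMSO libraries and beside the AZD libraries. The sum was 303 ± 73.7 FPKM (SD, n = 3) in DMSO and 443 ± 35.8 FPKM in AZD (log2 change 0.57, adjusted p = 0.137), and passed only without DMSO replicate 1 (0.0448).

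CSY2 (AT3G58750), the peroxisomal citrate synthase, fell in its copy Gh_D11G0641 from 38.1, 74.6 and 58.4 FPKM in DMSO to 25.1, 19.3 and 23.0 FPKM in AZD (log2 change −1.28, standard error 0.261, adjusted p = 0.0488). Gh_A11G0558 had 22.4, 42.4 and 36.7 and 16.9, 16.5 and 17.2 FPKM (log2 change −0.94, adjusted p = 0.0811), and was lower without DMSO replicate 1 (adjusted p = 0.0109). Every AZD value lay below every DMSO value in both copies, with DMSO replicate 1 the nearest. The sum was lower as well (90.9 ± 28.4 against 39.3 ± 3.21 FPKM, SD, n = 3, log2 change −1.15, adjusted p = 0.0372). Both the sum and Gh_D11G0641 passed only without DMSO replicate 1 (adjusted p = 0.00548 and 0.0149) when a library was left out, with 0.0649 to 0.131 for the sum and 0.0898 to 0.162 for the copy otherwise. The copy also lost its call without the limit of 0.5 FPKM (0.0619) and without limma's trend (0.0579). ACO1 (AT4G35830), an aconitase that turns citrate into isocitrate, had small differences. The main copy Gh_D12G0560 had 34.0, 35.9 and 38.3 FPKM in DMSO and 30.4, 28.2 and 28.7 FPKM in AZD (log2 change −0.30, adjusted p = 0.190), and the sum had 70.0 ± 0.782 and 63.6 ± 2.03 FPKM (SD, n = 3, log2 change −0.14, adjusted p = 0.405, 95% interval −0.36 to 0.09).

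PCK1 (AT4G37870), phosphoenolpyruvate carboxykinase, takes the carbon of the cycle towards sugar. Its values overlapped between the groups. The sum was 403, 686 and 515 FPKM in DMSO and 539, 475 and 549 FPKM in AZD, which gave −0.01 for the log2 change (adjusted p = 0.990), with a 95% interval from −0.54 to 0.52, so that a difference of up to that size in either direction cannot be told from none. The main copy Gh_D03G0311, with 79.8% of the sum, had 303, 566 and 421 and 428, 382 and 426 FPKM (log2 change −0.02, adjusted p = 0.977), and its direction turned to 0.20 without DMSO replicate 2 and to 0.04 without AZD replicate 2. PCK1 over ICL was 0.326, 0.264 and 0.308 in DMSO and 0.792, 0.962 and 1.13 in AZD, with no overlap. Minor copies on chromosome 12 had positive log2 changes. Gh_D12G0761 had 10.7, 3.97 and 2.13 FPKM in DMSO and 19.0, 12.9 and 16.1 FPKM in AZD (log2 change 1.68, standard error 0.508, adjusted p = 0.116), and it was higher without DMSO replicate 1 (adjusted p = 0.0178). Gh_A12G0739 had 4.75 to 13.8 FPKM in DMSO and 10.2 to 15 FPKM in AZD (adjusted p = 0.482).

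For the 44 tested copies in which the AZD mean and the mean of DMSO replicates 2 and 3 differ by at least 0.5 in log2(FPKM + 0.5), the place of DMSO replicate 1 between them was measured, with 0 for the AZD mean and 1 for the other. Its median was 0.357. It lay at 0.75 or above, with the other DMSO libraries, in 11 copies, among them both SDP1 copies, Gh_A11G2972 and Gh_D11G0264 of ACX1, Gh_A03G0958 and Gh_D02G1343 of ICL and Gh_D09G0533 of LACS7. In 14 copies it lay at 0.25 or below, among them the 2 main MFP2 copies, the chromosome 1 copies of PMDH1 and the chromosome 10 pair of ACX2, and in 19 it lay between. Of the 10 called copies, those 7 were on the DMSO side, and Gh_A09G2434 of ACX4 (0.630), Gh_D13G0911 of ICL (0.565) and Gh_D11G0641 of CSY2 (0.492) lay between the groups. The calls themselves used DMSO replicate 1, so a copy passes more readily where this library lies with the other DMSO libraries. The 44 copies were also picked on a gap that leaves it out, and its place on this scale over all genes was not measured. These places are descriptions only. On the first principal component of all tested genes, DMSO replicate 1 scored −63.38, between −59.35 and −89.75 for DMSO replicates 2 and 3. The AZD libraries scored 64.38 to 78.42. Among the DMSO libraries, replicate 1 had the highest sum of green tissue genes (6215 FPKM, against 2981 and 2546 FPKM), and the part of these genes in its place was not tested.

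The share of the subgenomes was compared in 25 pairs of 1 A and 1 D copy that match the same locus on chromosomes of the same number, with no other tested copy on either. The D copy was the higher in every library in 10 pairs, the A copy in 8, and 7 were mixed. The mean D share ran from 9.78% in LACS7 on chromosome 9 to 93.5% in ECH2 on chromosome 5, with a median of 49.6%. No pair passed the test of a different share between the groups (limma on the log2 ratio of A to D, 0 of 25 pairs, against 0.0635% of 12604 pairs in all), and 6 of 25 (24.0%) were at an unadjusted p under 0.05, beside 15.4% of all pairs. The nearest to the threshold was ACX2 on chromosome 10, with a D share of 49.7%, 52.4% and 50.6% in DMSO and 33.1%, 35.4% and 37.9% in AZD (adjusted p = 0.0731). For PCK1 on chromosome 12 the D share was 43.9%, 31.8% and 30.9% in DMSO and 55.9%, 55.9% and 59.9% in AZD (adjusted p = 0.0891). LACS7 on chromosome 9 went from 4.24%, 3.75% and 7.06% to 14.6%, 15.1% and 14.0% (adjusted p = 0.117). In MLS the copies stayed near even, with 46.4% to 50.2% in the D copy. Reads of near-identical A and D copies can be assigned to either, which limits these shares, and 4 further pairs between A02 and D03 or A03 and D02, added after the gene IDs were seen, did not pass either.

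**Figure D4:**
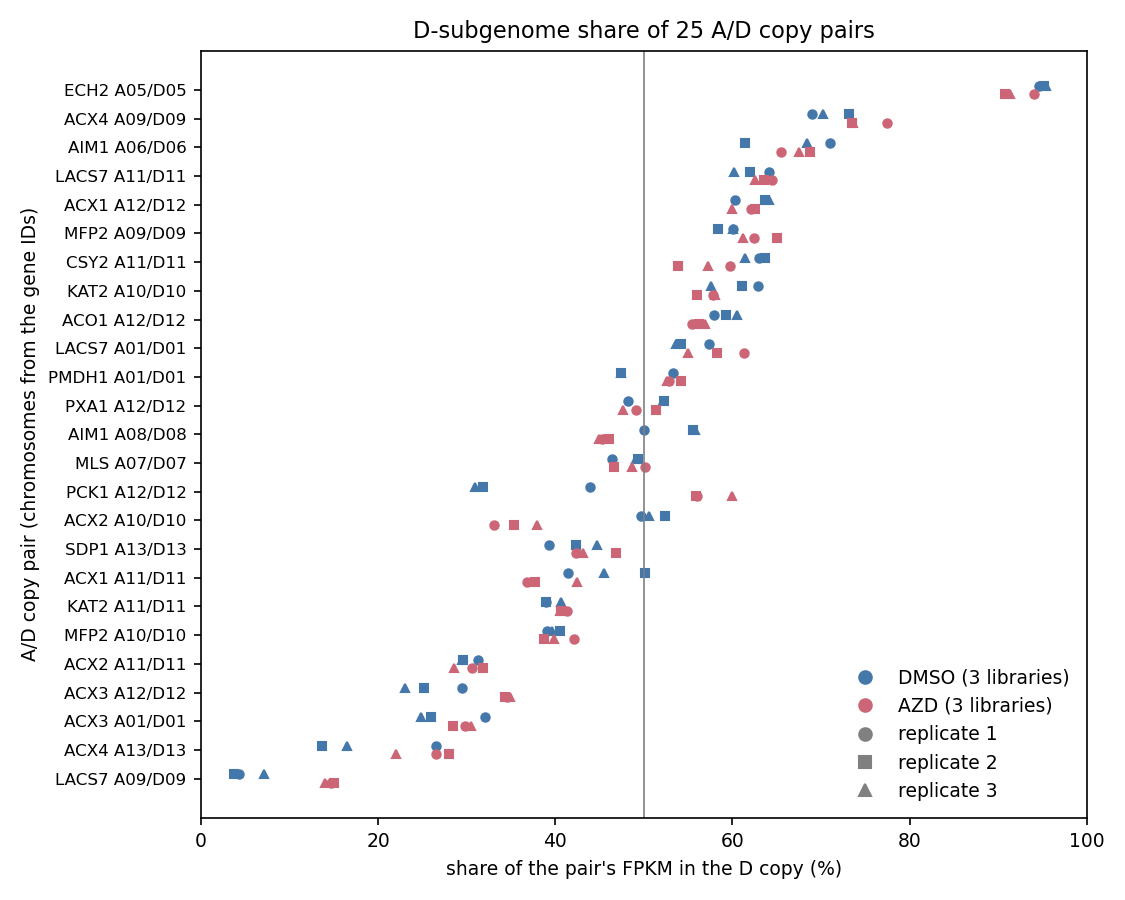
Share of the FPKM of each of 25 A/D pairs that falls on the D copy, in percent, with 1 point per library (DMSO blue above, AZD red below the line of the pair, marker shapes for replicates 1 to 3). The widest gaps between the groups are those of PCK1 A12/D12, ACX2 A10/D10 and LACS7 A09/D09, and none of the 25 pairs passed the test.

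Among other genes of the same pathways the calls were near the shares over all genes. A list of 22 further loci (other hydratases and isomerases, the peroxisomal ATP carrier, other citrate synthase, aconitase and PCK genes, PPDK, catalases and the peroxisomal ascorbate enzymes) had 81 rows at 16 loci, of which 64 were tested, 2 were higher (3.13%, against 1.89% of all genes) and 1 was lower (1.56%, against 2.80%), with a median log2 change of 0.07. At an unadjusted p under 0.05 there were 15 copies above and 11 below 0 (40.6%, against 23.4% of all genes). The lower gene was Gh_D11G2716 of PNC1 (AT3G05290), which carries the ATP that fatty acid activation needs into the peroxisome, at 16.1, 28.7 and 27.3 FPKM in DMSO and 5.65, 5.84 and 8.18 FPKM in AZD (log2 change −1.77, adjusted p = 0.0234). Gh_D10G1617 of PPDK (AT4G15530), pyruvate orthophosphate dikinase, was higher, from 1.27, 0.497 and 0.332 FPKM in DMSO to 5.12, 4.01 and 5.25 FPKM in AZD (log2 change 2.21, adjusted p = 0.0182). The other higher gene was Gh_D02G1334 of the aconitase ACO3 (AT2G05710), with 0.958 to 1.29 FPKM in DMSO and 2.31 to 2.60 FPKM in AZD (log2 change 0.90, adjusted p = 0.0300). A second ACO3 copy, Gh_D12G1569, named after its values were seen, had 33.9, 162 and 114 FPKM in DMSO and 19.0, 16.4 and 20.1 FPKM in AZD (log2 change −2.19, adjusted p = 0.0773).

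Peroxins, which build the peroxisome and import its proteins, had 59 tested copies, of which 3 were lower (5.08%, against 2.80% of all genes) and none was higher (against 1.89%, limma, with 5 above and 7 below 0 at an unadjusted p under 0.05), with a median log2 change of 0.04. The lower copies were Gh_A05G1681 and Gh_D05G1872 of the PEX11 gene AT1G47750, whose family divides peroxisomes, and Gh_A04G0002 of PEX5, the receptor for most matrix proteins. Gh_A05G1681 had 3.64, 4.75 and 2.54 FPKM in DMSO and 0.367, 0.888 and 0.359 FPKM in AZD (log2 change −2.00, adjusted p = 0.0215), and Gh_D05G1872 had 17.6, 21.8 and 14.1 and 9.38, 6.04 and 8.66 FPKM (log2 change −1.11, adjusted p = 0.0483). Gh_A04G0002 stood at 26.4, 27.0 and 22.3 FPKM in DMSO and at 15.5, 15.1 and 16.3 FPKM in AZD (log2 change −0.67, adjusted p = 0.0412). All other tested peroxin copies did not pass.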

How the data were processed

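Total RNA of seedlings was sequenced in 6 libraries (3 DMSO, 3 AZD). The FPKM values per gene and library were made by the authors with TopHat2 (mapping), Cufflinks (assembly) and Cuffdiff (comparison of groups), and were used as deposited. Not given in the sources used here: tool versions, genome build. The study names a directional NEB kit and the labels an Illumina TruSeq kit. All 6 value columns were used and 0 were left out. Since FPKM are not counts, limma 3.58.1 in R 4.3.3 (with trend, two-sided) was fitted on log2(FPKM + 0.5) over all genes, summed loci or A/D pairs with a mean of at least 0.5 FPKM, with Benjamini-Hochberg adjustment over all of them and a threshold of 0.05. The fit was first run on simulated data with known changes. Noise there was independent for each gene and library, so no library stood apart as DMSO replicate 1 did. The run therefore cannot tell how the calls fare with such a library. Intervals of differences are 95% intervals from limma. Tables and figures used Python 3.11.15, pandas 2.3.3, numpy 2.4.6, scipy 1.17.1 and matplotlib 3.10.9.

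The genes named by rule are every called copy, the most abundant tested copy of each locus, and the largest rise and fall. Other copies were named after their values were seen. The members and lists were chosen with earlier results of these data known. None of the gene IDs (0) occurs in the reference gene table, so chromosomes come from the IDs. Alternatives were other pseudocounts, filters, scalings, no trend, the replicate number as a block, and leaving out each library. Copies with adjacent IDs (ICL on D13, LACS7 on D01, ACX3 on A01 and D01, MFP2 on D12) may share reads.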

Additional observations from a re-analysis of the deposited data

How the results depend on the processing

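Leaving out 1 library gave 0 to 6 higher and 0 to 22 lower copies (1 and 9 over 6 libraries), 0 to 1 higher and 1 to 7 lower summed loci (1 and 4), and a median log2 change of −0.31 (without AZD replicate 3) to −0.11 (without AZD replicate 2). Over all genes this gave 44 to 1814 higher and 145 to 1589 lower (817 and 1208), lowest without AZD replicate 1 and highest without DMSO replicate 1. With the replicate number as a block, 0 copies were higher and 0 lower (limma, with 8 and 22 at an unadjusted p under 0.05), 0 loci were higher and 1 lower, and over all genes 14 and 58. The deviations from the group means correlated with r = 0.018, −0.042 and −0.088 between libraries of the same number. Between libraries of unlike number r was −0.121 to 0.175. These values give no sign of a pairing by number, but they cannot exclude one. Without the filter on low values, or without limma's trend, 0 summed loci were higher, and 3 and 2 of the 26 copies named by rule lost their call. Pseudocounts of 0.1 and 1, a mean of at least 1 FPKM, median-of-ratios scaling and quantile normalization kept each count of called member copies and loci within 1.5 times of the main one, and the call and direction of each of these 26 copies, except that quantile normalization took 1 more past the threshold. PCK1 Gh_D03G0311, not called in any fit, changed sign without DMSO replicate 2 (0.20) and without AZD replicate 2 (0.04), with −0.25 to 0.20 over the libraries left out. No A/D pair passed in any of these fits. The cause of these differences was not tested. Low copies are limited by a depth that the values do not give.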
